A study of Homo sapiens with 7 samples.

Results

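The regions described are stretches of distal chromatin that carried monomethylated lysine 4 of histone H3 (H3K4me1) both in control SW1990 cells and in SW1990 cells with KMT2D knocked down. SW1990 is an established human pancreatic cancer cell line. The members were chosen by their position and by calls in both H3K4me1 peak lists. A member is an interval of the negative control (NC) list whose midpoint lay more than 10 kb from the 5′ end of every protein-coding gene in GENCODE release 44, and which overlapped an interval of the KMT2D-KD list by at least 1 base. This rule selected 36130 of the 64843 NC intervals, or 55.7% (95% exact binomial interval 55.3 to 56.1). Intervals of this kind cover counting error only, here and below.

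The study profiled KMT2D, EBF2 and H3K4me1 by ChIP-seq in negative control SW1990 cells (NC) and in SW1990 cells with KMT2D knocked down (KMT2D-KD). Each condition and target had 1 library, and 1 input library served as the background; the condition of the cells behind the input was not given. With 1 library per condition there was no replicate check, so every difference between NC and KMT2D-KD compares a pair of libraries and no p-value was computed. The KMT2D list had 238 NC intervals and the knockdown list 318, which does not measure how far KMT2D was reduced, and its level was not analysed here.

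H3K4me1 is the mark typical of enhancers, the regulatory DNA that acts on genes from a distance, and it is found at active and at poised enhancers alike. KMT2C and KMT2D are the main enzymes that place it there, within complexes that also hold NCOA6, PAXIP1, PAGR1 and the demethylase KDM6A. The mark sits on nucleosomes, and the short stretch where transcription factors bind is often free of nucleosomes, so an enhancer can appear as a pair of marked flanks with a gap between them. AP-1, made of FOS and JUN family proteins, and the TEAD factors, which work with YAP1 and WWTR1, bind many enhancers of epithelial and carcinoma cells.

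Gaps between neighbouring members were common, and whether they were free of nucleosomes was not measured. There were 11643 gaps of 50 to 1000 bases between members that were next to each other in the NC list, with a median of 410 bases, and 19289 members (53.4%) bordered at least 1 of them. The letters TGACTCA, the core bound by AP-1, stood on either strand in the central 200 bases of 1811 gaps, or 15.6% (14.9 to 16.2). The 6 windows printed here come from 6 of the 10 loci where clustered members covered most DNA, and were picked because they hold these letters, to show how they stand between marked flanks. Each is 200 bases of hg38, plus strand, centred on a gap, in lower case with TGACTCA or its reverse complement in capitals.
TEAD1, chr11:12693906-12694105: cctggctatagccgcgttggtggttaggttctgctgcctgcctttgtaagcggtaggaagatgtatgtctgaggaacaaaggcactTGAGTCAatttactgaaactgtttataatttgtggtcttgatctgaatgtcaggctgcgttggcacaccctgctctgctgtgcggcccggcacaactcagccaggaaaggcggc
AOPEP, chr9:94913093-94913292: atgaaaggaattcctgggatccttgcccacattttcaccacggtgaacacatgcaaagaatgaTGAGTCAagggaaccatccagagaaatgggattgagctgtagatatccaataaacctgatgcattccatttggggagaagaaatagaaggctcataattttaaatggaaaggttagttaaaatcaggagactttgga
TRIO, chr5:14190345-14190544: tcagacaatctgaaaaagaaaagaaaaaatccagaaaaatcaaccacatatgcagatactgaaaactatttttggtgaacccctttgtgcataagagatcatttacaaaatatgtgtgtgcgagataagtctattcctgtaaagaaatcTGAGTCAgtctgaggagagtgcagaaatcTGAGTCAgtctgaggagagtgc
BCAR3, chr1:93662201-93662400: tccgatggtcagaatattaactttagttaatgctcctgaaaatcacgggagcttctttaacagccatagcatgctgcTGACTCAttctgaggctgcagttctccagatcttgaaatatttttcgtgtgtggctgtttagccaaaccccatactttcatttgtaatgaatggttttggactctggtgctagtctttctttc
CRIM1, chr2:36375145-36375344: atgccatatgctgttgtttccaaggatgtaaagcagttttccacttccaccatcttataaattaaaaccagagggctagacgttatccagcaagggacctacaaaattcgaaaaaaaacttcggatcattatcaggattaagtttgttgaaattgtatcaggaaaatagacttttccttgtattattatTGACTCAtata
WDR25, chr14:100476384-100476583: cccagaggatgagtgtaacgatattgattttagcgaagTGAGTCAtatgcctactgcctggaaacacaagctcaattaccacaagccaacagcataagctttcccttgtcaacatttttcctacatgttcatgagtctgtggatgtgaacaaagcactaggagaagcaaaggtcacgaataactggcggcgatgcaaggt
Each window is named by the gene whose body holds the members on both sides. Most gaps of these clusters held no such letters, with 1 of 19 gaps in TEAD1, 3 of 22 in AOPEP, 1 of 13 in TRIO, 4 of 13 in BCAR3, 2 of 20 in CRIM1 and 3 of 26 in WDR25 that did. The TEAD1 window lay in an 834-base gap between members of 6.61-fold and 5.94-fold enrichment over the input. The AOPEP window lay in a 434-base gap between members of 7.72-fold and 7.02-fold enrichment. In TRIO the gap measured 603 bases between members of 6.25-fold and 6.19-fold enrichment, and its window held the letters 2 times. These 2 matches stood in back-to-back copies of the same stretch of bases. The BCAR3 gap was the narrowest of the 6 at 217 bases, and it was the one whose centre was covered by a KMT2D-KD interval. The other 5 gap centres lay outside the called intervals of both lists.

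Around gap centres the letters were concentrated in a narrow zone. In bins of 50 bases, the share of gaps with an AP-1 match reached 4.86% in the bin just after the centre and averaged 1.32% beyond 1000 bases. The same letters in reversed order, which keep the base composition, averaged 0.953% in the pair of central bins and 0.833% beyond 1000 bases. Around the summits of the members themselves the picture was the opposite. The AP-1 share was lowest at the summit, at 1.005% per bin, and highest between 300 and 350 bases before it, at 2.54%. In whole windows of 200 bases, 4.54% (4.32 to 4.76) of member summits held the letters, against 3.72% of windows 2000 bases away and 3.15% for the reversed letters. Summit windows of distal intervals in NC alone held them more often, at 5.81% (5.445 to 6.18), and so did those in KMT2D-KD alone, at 5.23% (5.003 to 5.456).

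**Figure D1:**
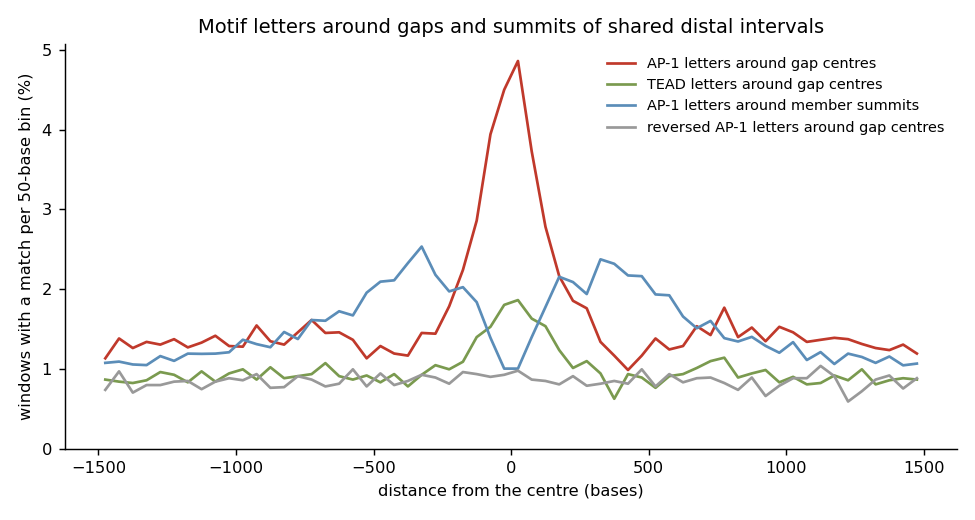
Share of windows with a match per 50-base bin (vertical axis, percent) against distance from the centre (horizontal axis, bases) for AP-1, TEAD and reversed AP-1 letters around 11643 gap centres and for AP-1 letters around 36130 member summits. AP-1 letters peak at 4.86% at gap centres, while around summits they dip to 1.005%.

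Of the 16 motifs searched, AP-1 had the highest ratio of gap windows to flanking windows 2000 bases away, 3.69, with 4.22% (3.97 to 4.49) of flanks holding it. The CREB and ATF core TGACGTCA was rare, with 0.292% of gaps against 0.112% of flanks. The TEAD core ACATTCC stood in 6.27% (5.84 to 6.73) of gaps and 3.12% (2.90 to 3.35) of flanks. The RUNX core TGTGGTT stood in 4.83% of gaps and 3.56% of flanks. The forkhead core TGTTTAC stood in 4.60% of gaps and 2.95% of flanks, but its letters in reversed order stood in 4.90% of gaps. For SOX, with ACAATGG, the order was the other way round, with 2.15% of gaps and 2.99% of flanks. KLF letters, GGGCGTG, stood in 2.53% of gaps and 2.03% of flanks. The other 9 motifs had gap ratios to flanks from 0.945 to 1.18. They were those of GATA factors (AGATAAG), HNF4 (CAAAGTCCA), HNF1 (TTAATNATT), ETS (CCGGAAG), GRHL (AACCNGGTT), CEBP (TTGCNNCAA), STAT (TTCNNNGAA), EBF (CCCNNGGGA) and CTCF (AGGGGGC), with N for any base and both strands searched. AP-1 and TEAD letters occurred together in 121 gaps, which is 6.68% (5.58 to 7.93) of the AP-1 gaps. The TEAD share over all gaps lies inside that interval. A match describes the letters in a window and does not show that a factor was bound.

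The AP-1 share was above the flank share on all 23 chromosomes with at least 20 gaps, from 8.63% on chromosome 4 to 18.1% on chromosome 3. It was 14.2% (13.43 to 15.01) where both neighbours were intronic and 18.5% (17.1 to 19.8) where both were intergenic. Gaps between members that reached at least 5-fold but under 8-fold enrichment on the weaker side held the letters in 21.2% (19.2 to 23.4), and those with a weaker side under 3-fold in 11.6% (9.73 to 13.6). Between neighbouring KMT2D-KD intervals linked to members, 16.4% (15.7 to 17.1) of 10588 gaps held AP-1 letters and 6.67% held TEAD letters. Gaps between neighbouring distal intervals of NC alone had 11.3% (9.38 to 13.4) over 993 gaps. For distal intervals of KMT2D-KD alone the share was 9.65% (8.90 to 10.45) over 5678 gaps, and for shared intervals within 10 kb of a gene start it was 11.7% (10.4 to 13.0) over 2396 gaps. All of these exceeded their own flanks, and the 15.6% of the members stood above the upper bounds of the 3 other sets. Relative to flanks, members and distal intervals of NC alone were close, with ratios of 3.69 and 3.61. The flanks themselves held the letters in 4.22% for members and 3.12% for NC alone. The ratio was 2.59 for KMT2D-KD alone and 2.90 for shared intervals within 10 kb.

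Gaps that KMT2D-KD intervals covered and gaps that they left uncovered differed in sequence. The centres of 5664 of the 11643 gaps (48.6%) were covered by a KMT2D-KD interval. AP-1 letters stood in 11.5% (10.6 to 12.3) of these covered gaps and in 19.4% (18.4 to 20.5) of the 5979 uncovered gaps. Covered gaps were also shorter, with a median of 337 against 481 bases, so the shares were set side by side within gap lengths. Under 200 bases the intervals overlapped, with 14.5% (11.04 to 18.5) of 366 covered and 19.4% (12.95 to 27.3) of 129 uncovered gaps. From 200 to under 400 bases they were 14.3% (13.1 to 15.6) covered and 24.96% (23.1 to 26.9) uncovered. From 400 to under 600 bases they were 9.19% (7.555 to 11.04) and 19.0% (17.2 to 20.9). From 600 to 1000 bases the covered gaps, at 4.94% (3.76 to 6.37), were close to their flanks at 4.37%, and the uncovered gaps stood at 14.1% (12.6 to 15.7). TEAD letters followed the same order, with 4.91% (4.36 to 5.50) of covered and 7.56% (6.90 to 8.26) of uncovered gaps.

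The next question was how the members differed between the conditions, for which the rule itself had used the calls. Overlap was required of every member, so widths and enrichments are descriptions. Of the 51927 distal NC intervals, 69.6% (69.2 to 70.0) were shared, close to the 70.2% (69.39 to 70.97) of the 12916 intervals within 10 kb. The members covered 21.1 Mb, or 0.809% of the distal genome, and the 34316 KMT2D-KD intervals linked to them covered 26.1 Mb. The 16.6 Mb in common were 78.4% of the member bases and 63.5% of the linked KMT2D-KD bases. Members formed 1-to-1 pairs in 26525 cases (73.4%). In 7284 cases (20.2%) the KMT2D-KD interval of a member also met other NC intervals, whether or not these were members. A further 1658 members (4.59%) were split into several KMT2D-KD intervals, and 663 showed both.

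In the 1-to-1 pairs the median width was 426 bases (NC) against 546 bases (KMT2D-KD). The median log2 ratio of width, KMT2D-KD over NC, was 0.25, with quartiles of -0.23 and 0.79. KMT2D-KD was the wider side in 16997 pairs (64.1%, 63.5 to 64.7), the narrower in 9478, and equal in 50. At least 1.5-fold widening was found in 33.2% of the pairs, against 33.7% of all 1-to-1 pairs in the lists, and at least 1.5-fold narrowing in 13.8% against 13.3%. The members, which make up 26525 of those 33466 pairs, were near this background in both directions. Within 10 kb of a gene start, 66.7% (65.6 to 67.8) of 6941 pairs were wider in KMT2D-KD.

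Merged groups widened most. The 3039 groups of members that met 1 KMT2D-KD interval had a median summed width of 1007 bases (NC) against 1510 bases (KMT2D-KD), and 88.4% were wider in KMT2D-KD. Summed widths leave out the gaps, so the bases of a closed gap enter on the KMT2D-KD side. The 1658 split members had a median width of 1029.5 bases (NC) and a median summed width of 972 bases in KMT2D-KD, and 41.7% were wider. Over all 31840 linked groups the median log2 ratio was 0.26.

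**Figure D2:**
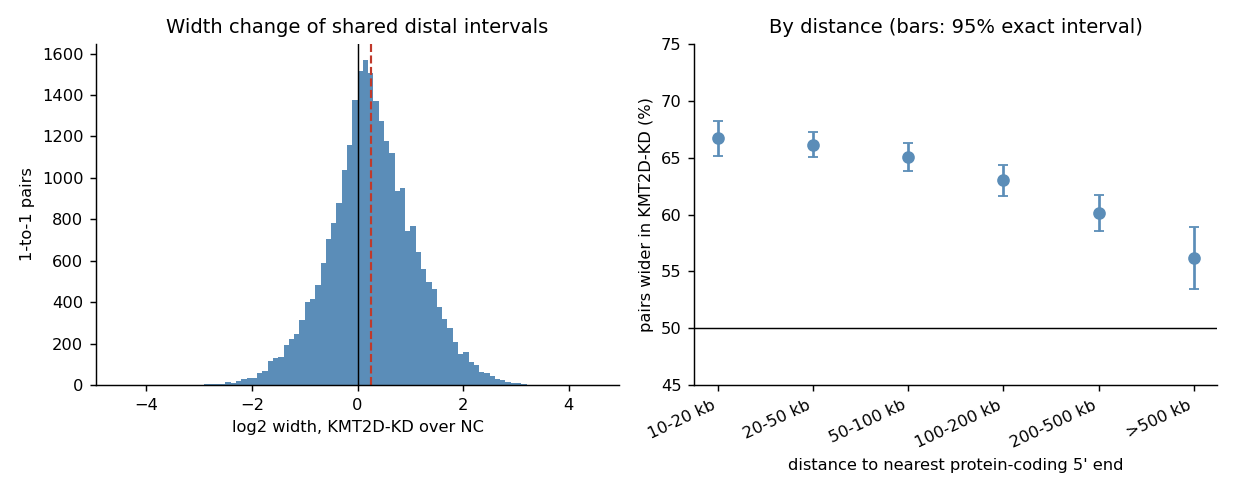
Left, number of 1-to-1 pairs (vertical axis) by log2 ratio of width, KMT2D-KD over NC (horizontal axis, bins of 0.1), with the median of 0.25 as a dashed line. Right, percent of pairs wider in KMT2D-KD by distance to the nearest protein-coding 5′ end, with 95% exact intervals and an axis that starts at 45%; the share falls from 66.7% to 56.2%.

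The share of wider pairs varied with the position and the size of the pairs. It was 66.7% (65.1 to 68.2) from 10 to 20 kb from a gene start, 63.0% from 100 to 200 kb and 56.2% (53.4 to 58.9) beyond 500 kb. Median NC width was nearly the same at these distances, between 409 and 435 bases. Pairs whose geometric mean of both widths was up to 300 bases were wider in 50.3% (48.7 to 51.8), and pairs of 1000 to 2000 bases in 70.8% (68.9 to 72.6). This mean takes in the KMT2D-KD width itself. No interval was narrower than 187 bases in NC or 176 bases in KMT2D-KD, which limits the change possible in small pairs. The part of this limit in the shares was not tested. Introns and intergenic DNA differed little, with 65.0% of pairs in protein-coding introns and 63.5% of intergenic pairs wider. By chromosome the share ran from 58.9% (56.5 to 61.2) on chromosome 7 to 73.3% (68.05 to 78.05) on chromosome 22, apart from Y with 5 pairs. Chromosomes 22, 19, 18 and X, with shares of 73.3%, 73.0%, 70.2% and 69.95%, had 1.72 to 1.96 times as many distal intervals in KMT2D-KD as in NC, and chromosomes 5, 7 and 11, with 61.0%, 58.9% and 61.7%, had 1.19 to 1.27 times as many. Chromosomes 4 and 21 departed from this order, with 63.7% wider at a ratio of 1.84 and 66.3% at 1.89, and so did chromosome 9, with 69.7% at 1.49.

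Enrichment over the input moved the same way as width. Median fold enrichment at the summit was 4.21 in NC and 4.76 in KMT2D-KD, a median log2 difference of 0.15, and it was higher in KMT2D-KD in 64.6% (64.0 to 65.2) of pairs. It was at least 1.5-fold higher in 15.1% of the pairs against 15.1% of all 1-to-1 pairs, and at least 1.5-fold lower in 3.27% against 3.16%. The median −log10 q was 4.16 in NC and 4.98 in KMT2D-KD. Recovered fragments at the summit had medians of 13 in NC and 14 in KMT2D-KD. The ratio of depths, KMT2D-KD over NC, was estimated at 0.940 from the lowest background of each list, taking its narrowest interval as the fragment length, and was not measured from read totals. Scaled by this ratio, summit fragments had a median log2 difference of 0.09, the value that pairs with equal counts take. Median background at the summit, which divides the fold enrichment, was 2.085 fragments in NC and 1.81 in KMT2D-KD. The part of this background in the higher enrichment was not tested. Fragment counts this low limit the precision of the values of any single interval. Summits of a pair were a median of 144 bases apart, and 81.3% of the NC summits lay inside the KMT2D-KD interval.

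By the rule for strong pairs, which takes pairs whose −log10 q reached 5 in each library, the largest ratios of widening were led by a SETBP1 intron, from 188 bases in NC to 1645 in KMT2D-KD at 5.62-fold and 5.31-fold enrichment. An intron of MYH9, the non-muscle myosin heavy chain gene, went from 372 to 3125 bases, and an intron of STPG1 nearest NIPAL3 from 460 to 3456. Members nearest MID1IP1 and CD177 were the other two. The largest ratios of narrowing were in an intron of GPHN, the gephyrin gene, nearest GARIN2, from 1424 to 243 bases, and nearest ADAMTS16, from 1464 to 269. Introns of ZNF462, METTL15 and PTPRO followed. Fold enrichment went from 4.32 to 4.69 in the GPHN intron and from 4.88 to 4.01 near ADAMTS16, a far smaller change than that of the width.

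The members with the strongest calls in both lists, outside every KMT2D and EBF2 interval, had 33 to 211 fragments at the NC summit. The first was nearest POU5F1B, in an intron of a non-coding gene, with a −log10 q of 79.0 in NC and 143.3 in KMT2D-KD. Its local background was 37.7 fragments, against a median of 2.085 over all members, so its 211 fragments gave only 5.48-fold enrichment. Of the next 9, ICE1, IRX1, ANKH, OXCT1, ANKRD33B and TRIO are on chromosome 5, where the 90th percentile of the background was 5.56 fragments against 3.67 over all members. The part of the raised background in these calls was not tested. In the PHF20 intron the member had 11.9-fold enrichment in NC and 16.7-fold in KMT2D-KD over a background of 1.85 fragments. The intergenic member near IRX1, a homeobox gene, had 8.55-fold and 11.1-fold enrichment. The widest member covered 9734 bases of an intron of LGR4, a receptor for R-spondins, and was split into 5 KMT2D-KD intervals.

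The members were then placed against gene annotation. Of the 36130 midpoints, 65.9% (65.37 to 66.35) were in introns, 30.3% (29.8 to 30.8) were intergenic and 3.85% were in exons. Sequenced bases more than 10 kb from all protein-coding 5′ ends were 55.6% intronic, 40.5% intergenic and 3.89% exonic. The surplus was in protein-coding introns, with 51.6% of members and 39.8% of the distal genome. Introns of non-coding genes held 14.2% of members and 15.8% of the distal genome. Within protein-coding introns, 28.5% (27.8 to 29.1) of members were in the first intron, which made up 18.0% of such distal bases. For 68.8% of the members in protein-coding introns the nearest 5′ end was that of the host gene. These shares were much the same in distal intervals of NC alone, with 64.9% (64.19 to 65.69) intronic and 28.2% of the protein-coding ones in the first intron, and of KMT2D-KD alone, with 65.1% (64.6 to 65.6) and 28.7%.

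Distance set the members apart from intervals of NC alone, which are also narrower, with a median of 279 against 449 bases. The median distance to the nearest protein-coding 5′ end was 66893.5 bases for members, 79669 bases for NC alone and 65282 bases for KMT2D-KD alone. Members fell from 19.1 per Mb at 10 to 20 kb to 15.1 at 100 to 200 kb and 3.88 beyond 500 kb. Beyond 500 kb lay 4.73% (4.514 to 4.954) of members, 8.13% (7.71 to 8.57) of the intervals of NC alone and 16.9% of the distal genome. For intervals of KMT2D-KD alone the share was 5.32% (5.095 to 5.551). Within 1 kb of a long non-coding RNA 5′ end were 1.89% (1.75 to 2.03) of members and 1.44% (1.26 to 1.635) of those of NC alone. Intervals of KMT2D-KD alone were close to the members, at 1.87% (1.739 to 2.016). Just inside the distance limit, the 498 members at 10 to 11 kb had a median width of 443.5 bases, and the 587 shared intervals at 9 to 10 kb had 439. The 915 members that shared 50 bases or fewer with KMT2D-KD had a median width of 287 bases, and the 638 distal intervals that missed one by up to 50 bases had 291.

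**Figure D3:**
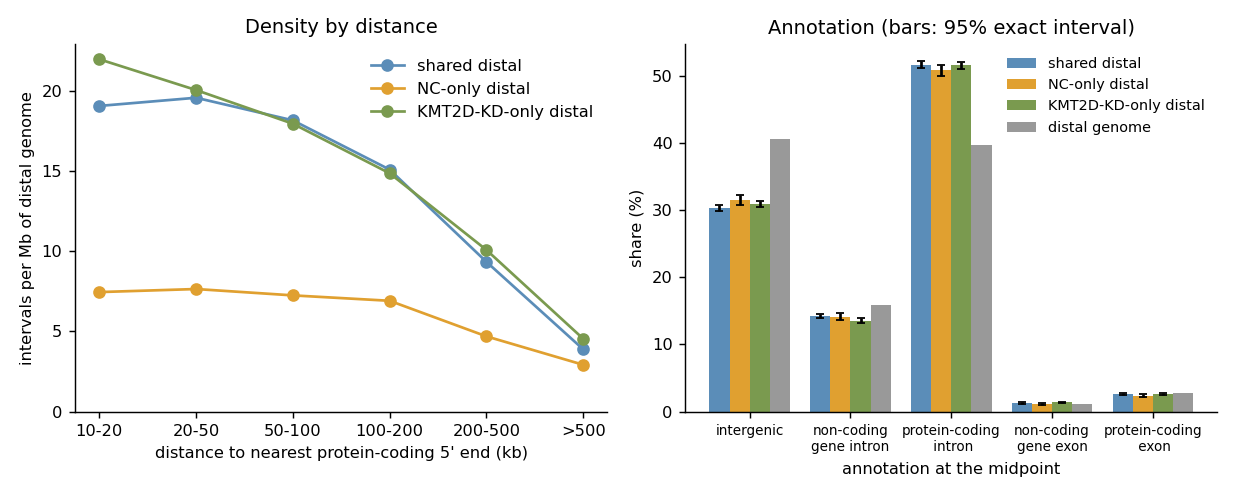
Left, intervals per Mb of distal genome (vertical axis) by distance to the nearest protein-coding 5′ end in kb; members fall from 19.1 to 3.88 per Mb. Right, share of midpoints (percent, bars with 95% exact intervals) in each annotation class for members, distal intervals of NC alone, distal intervals of KMT2D-KD alone and the distal genome; 51.6% of members lie in protein-coding introns against 39.8% of the distal genome.

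Each member was assigned to the protein-coding gene with the nearest 5′ end. Of 17715 genes with distal DNA of their own, 6722 (37.9%) had a member, and 931 genes (5.26%) held 50% of all members. Among the 5924 genes with at least 100 kb of such DNA, 2103 (35.5%) had none. The leading gene was MYC, the oncogenic transcription factor, with 101 members at a median distance of 123.4 kb. Non-coding genes held 86 of these, and PVT1, a long non-coding RNA gene beside MYC that was singled out after its count was seen, held 57 members. KMT2D-KD had 104 intervals linked to the members around MYC. Median background there was 2.43 fragments, and 49 of 73 pairs were wider in KMT2D-KD.

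AOPEP, an aminopeptidase gene, came next with 65 members, all within the gene itself. ANKH, a pyrophosphate transporter gene, had 62, with a background of 5.56 fragments, and SOX9, a transcription factor of pancreatic ducts, had 61 members at a median distance of 382.4 kb. TNS3, which encodes a tensin of focal adhesions, and AUTS2 had 60 each. TEAD1 and SLCO3A1, a transporter gene, had 57 each, and IRS2, an insulin receptor substrate, 56, or 33 when every protein-coding transcript start was counted. PRKCA, protein kinase C alpha, had 52. LYZL1, the TGF-beta receptor gene TGFBR2 and the Hedgehog factor gene GLI3 had 51 each. CRIM1, DAB2 and CSGALNACT1 had 50 each, and USP24, SORCS1, PTPRJ and TBL1XR1 had 49 each. Over all genes the 99th percentile was 25 members. DAB2 and PTPRJ also stood on a raised background, at 4.75 and 4.29 fragments.

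In 18 of the 20 leading genes the median width ratio favoured KMT2D-KD, with log2 values up to 0.51 at TNS3, where 32 of 42 pairs were wider. At USP24 and SORCS1 14 of 29 pairs each were wider, with median log2 ratios of -0.01 and -0.07. At PTPRJ 18 of 22 pairs were wider. The number of pairs per gene, 22 to 73, leaves intervals that reach the share over all pairs in each of these 20 genes.

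**Figure D4:**
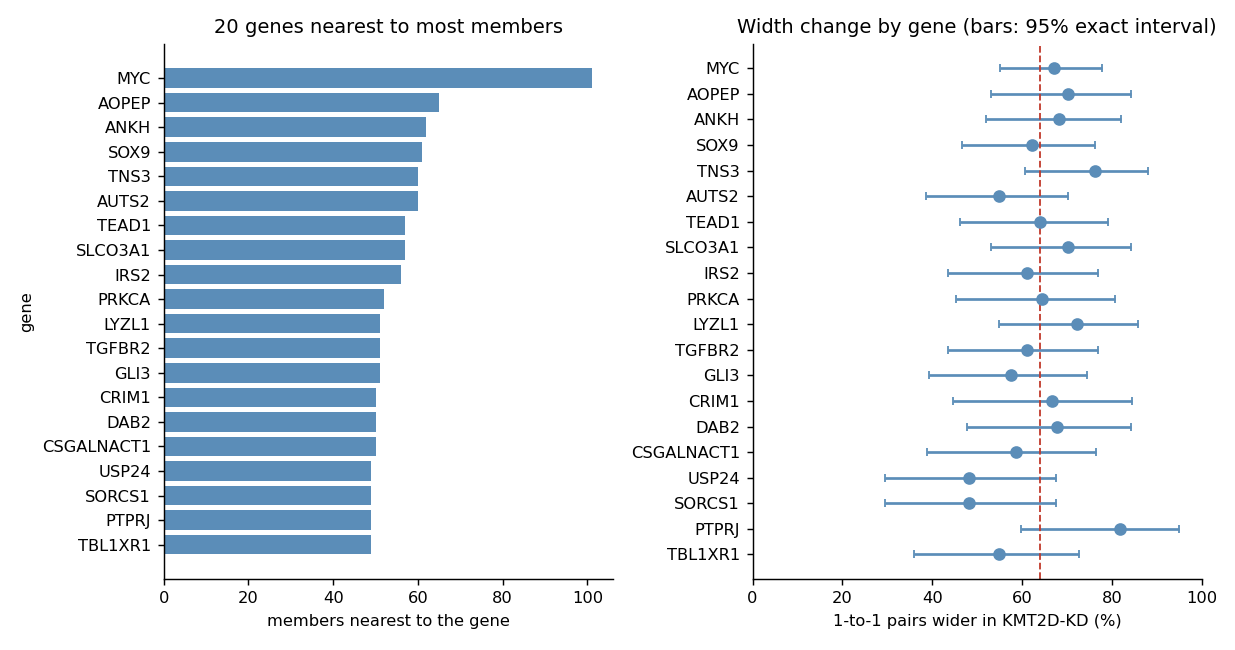
Left, number of members (horizontal axis) for the 20 genes nearest to most members, from 101 at MYC to 49. Right, percent of their 1-to-1 pairs wider in KMT2D-KD with 95% exact intervals; the dashed line marks the 64.1% of all pairs, which lies within each interval.

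Per Mb of distal DNA, members averaged 13.8 genome-wide. Among genes with at least 10 members and 100 kb of distal DNA, PTPRJ, a receptor tyrosine phosphatase gene, was the densest, with 298.6 per Mb, followed by ABTB2 with 252.3 and DUSP5, a phosphatase that acts on ERK, with 233.5. PGPEP1L had 229.4 per Mb by its nearest 5′ end, but 1 of its 47 members lay in its own gene, and 7 remained when every protein-coding transcript start was counted. TGFBR3, the TGF-beta co-receptor betaglycan, had 225.2, with 40 of 46 members inside its own gene. LSM3, CSGALNACT1, CRTC3, BCAR3 and VCL, the vinculin gene, had 208.3 to 215.9 per Mb. By gene body, IGF1R, the insulin-like growth factor 1 receptor gene, held most members, 69, followed by RAD51B with 67 and PDE4D with 65; these 3 were named after their counts were seen.

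Members were also clustered. Stitched across the gap customary for super-enhancers, they formed 14897 clusters, of which 7424 were single members and 1777 held 5 or more. The latter contained 38.7% (38.2 to 39.2) of all members. The cluster that covered most bases lay in IGF1R, nearest PGPEP1L, at chr15:98842370-98915714, with 40 members over 39.5 kb, where KMT2D-KD intervals covered 44.6 kb. The BASP1 cluster held 34 members over 38.9 kb, and TEAD1 held 33 members over 37.7 kb against 45.9 kb in KMT2D-KD. In TRIO 28 members covered 33.7 kb against 36.6 kb. The AOPEP cluster had the most members of any, 43, over 28.1 kb against 45.7 kb for its KMT2D-KD intervals. Clusters in WDR25, MACF1, BCAR3, CRIM1 and LIMA1 completed the 10. The KMT2D-KD lengths count every interval of that list inside the cluster, while the NC lengths count members alone, so the lengths are not like for like.

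Genes of the ductal lineage and of adhesion and signalling pathways were compared by lists. Among 13 ductal and epithelial marker genes with distal DNA, 9 had a member, against 37.9% of all genes with distal DNA. Their pooled density was 57.6 per Mb against 13.8 for all genes. KRT18 had 13 members, KRT8 had 9 and KRT7 had 5, all simple-epithelial keratin genes, and the ductal chloride channel gene CFTR had 11. KRT18 and KRT8 start at 52948871 and 52949954 of chromosome 12, so their members lie around the same locus. KRT7 is on chromosome 12 as well. The median gene of this list had 24.9 per Mb. KRT19, EPCAM, CLDN4 and SPP1 had none, with 11.9, 93.1, 16.1 and 73.1 kb of distal DNA. Density was lower for hepatocyte genes, 1.55 per Mb with 1 of 10 genes reached, and for neuronal genes, 5.11 per Mb with 2 of 9. Muscle genes had 10.3 per Mb and acinar enzyme genes 15.4 with 3 of 9 reached. Lymphocyte genes reached 27.6 per Mb, of which IL7R alone gave 20 of 34 members, and endocrine genes 18.0 with 7 of 9 reached. Among ductal and endoderm transcription factors 9 of 15 genes had a member, at a pooled 24.6 per Mb, below the lymphocyte list, with 61 at SOX9, 34 at KLF5, 14 at HES1, 8 at FOXA2, 5 at GATA6 and none at FOXA1, GATA4, PDX1 or PROX1.

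**Figure D5:**
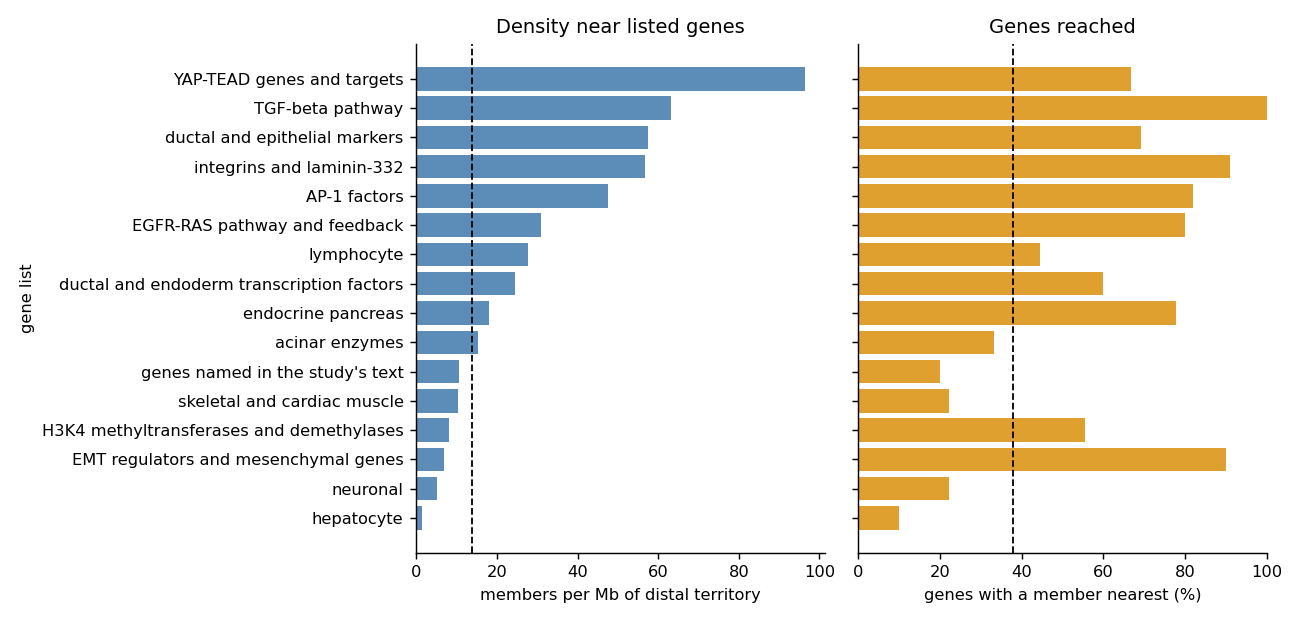
Left, members per Mb of distal DNA pooled over the genes of each list (horizontal axis), with 13.8 for all genes as a dashed line. Right, percent of genes in the list with a member, with 37.9% for all genes dashed; YAP-TEAD genes had 96.5 per Mb, while TGF-beta genes were all reached.

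Genes of the YAP-TEAD axis had 123 members at a pooled 96.5 per Mb over 12 genes, 8 of them reached. TEAD1 supplied 57 members. The pooled density was the highest of the lists, but the median gene of this list had 28.5 per Mb, below the 50.3 of TGF-beta genes, the 49.6 of integrin and laminin genes and the 30.4 of AP-1 factor genes. AMOTL2, a negative regulator of YAP, had 28 at 287.4 per Mb, YAP1 itself had 15, and the target genes CCN1 and CCN2 had 6 each. TEAD2, TEAD3 and TEAD4 had none, with 2.88, 4.34 and 80.1 kb of distal DNA. In the TGF-beta pathway all 11 genes with distal DNA had a member, 247 in all at 63.1 per Mb. Over all genes with distal DNA 37.9% had a member, but among those with at least 100 kb of it only 35.5% had none. The part of the amount of distal DNA in the counts of genes reached, here and in the other lists, was not tested. The receptors TGFBR2, TGFBR3 and TGFBR1 had 51, 46 and 6, and the ligand gene TGFB2 had 41. Signal transducers SMAD3 and SMAD2 had 23 and 16, and the inhibitors BAMBI, SMAD6 and SMAD7 had 30, 15 and 13. Over the TGF-beta list 112 of 179 pairs (62.6%) were wider in KMT2D-KD, close to the 64.1% of all pairs.

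Integrin and laminin-332 genes had 10 of 11 reached, against 37.9% of all genes with distal DNA, at 56.8 per Mb. ITGB1, the common beta subunit, had 23 members, ITGB5 had 19 at 207.2 per Mb and ITGB6 had 10. AP-1 factor genes had 9 of 11 reached at 47.5 per Mb, with 17 at JUN, 8 at FOSL2 and 7 at FOS. In the EGFR-RAS list 12 of 15 genes were reached at 30.9 per Mb, with 35 members at EGFR and 10 at MET, and with 26, 23 and 18 at the feedback inhibitors DUSP5, DUSP4 and SPRY2. EMT and mesenchymal genes had 9 of 10 reached at a pooled 6.96 per Mb, and the median gene had 10.2. CDH2 with 7 members and ZEB2 with 4 have 1908.8 and 1736.0 kb of the list's 5.89 Mb of distal DNA. SNAI1, PRRX1, FN1 and SNAI2 stood above the 13.8 per Mb of all genes, at 71.6, 22.0, 20.5 and 14.3, and the other genes of the list below it. Genes for H3K4 methyltransferases, their complex partners and demethylases had 5 of 9 reached at 8.08 per Mb. KMT2D had no member, with 8.36 kb of distal DNA. A list of 7 genes from the study's text, which leaves out others named there such as TGFBR3, CCN1 and KMT2C, had 6 members, all at EBF2. Of these 7 genes, 5 had distal DNA. KLLN and CIRBP had no distal DNA, so the 10 kb rule left them no possible member.

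The KMT2D and EBF2 lists were short, which caps the share of members that could meet them. NC KMT2D intervals overlapped 51 members (0.141%, 0.105 to 0.186) and NC EBF2 intervals 54 (0.149%). For NC KMT2D, 51 of its 238 intervals lay on members, and the share was 0.0696% (0.0348 to 0.125) of distal intervals in NC alone, 0.0985% (0.0693 to 0.136) of those in KMT2D-KD alone and 0.0552% (0.0179 to 0.129) of shared intervals within 10 kb. Members are wider, with a median of 449 bases against 279, 291 and 423 in that order, so each offers more bases to overlap. The part of width in these shares was not tested. In KMT2D-KD, 46 members overlapped KMT2D and 46 overlapped EBF2. Together 65 members (0.180%) met at least 1 of the 4 lists, and 36 met all 4. At 27 of the 65 (41.5%, 29.4 to 54.4) the summit window was a tandem repeat, in which a fraction of at least 0.6 of the bases equal the base a fixed period earlier, against 0.261% of the other members. Without the 65 members the median log2 ratio of width stayed at 0.25 and the AP-1 share in gaps at 15.6%. Base composition also differed between the sets. Median G+C at the summit was 44.5% for members, 42.5% for distal intervals of NC alone and 46.0% for those of KMT2D-KD alone, and the distal genome had 40.3%.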

How the data were processed

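SW1990 cells were profiled by ChIP-seq with 1 library per condition and target. Per the study's methods, reads were filtered for adapters, undetermined bases and low quality and aligned with bwa. The submitters' processing notes name hg38, BWA, MACS2 and HOMER, and the peak calling settings are not given in the sources used here. The deposited interval lists hold a fold enrichment ratio over the input and −log10 p and q values. From these, whole fragments at the summit were recovered for 99.99% of intervals in both H3K4me1 lists. Read totals per library are not in the lists.

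Members and gene lists were chosen with earlier results of these data known. Distances ran from midpoints to protein-coding 5′ ends of GENCODE 44. Intervals on shares are exact (Clopper-Pearson) and reflect counting error alone. Motifs were counted in 200-base windows, with flanks 2000 bases away. The text names the 20 genes nearest to most members, the 10 densest genes with at least 10 members and 100 kb of distal DNA, list genes, the 10 clusters covering most bases, the 10 strongest and 5 widest members, and the 5 pairs with −log10 q of at least 5 that widened or narrowed most. Alternatives changed distance, overlap, stringency, list size, annotation, stitching and windows. Python 3.11.15, numpy 2.4.6, pandas 2.3.3 and scipy 1.17.1 were used, with figures by matplotlib 3.10.9, and the scripts were tested on simulated data. Some items are not reported here.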

Additional observations from a re-analysis of the deposited data

How the results depend on the processing

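Of 52 alternatives, 22 left the value within its margin, 30 moved it and 0 reversed a direction. An overlap of 50% of both intervals left 17562 members and 33.8% of distal NC intervals shared, and requiring −log10 q to reach 5 in each library left 9393 members, both by construction. The shared percentage was 69.0 with every protein-coding transcript start, 68.9 with every annotated gene and 60.9 with equal numbers of intervals. The median log2 ratio of width was 0.30 at the stricter q, 0.29 with equal numbers, 0.26 over linked groups, 0.31 after merging across 1000 bases and 0.28 for pairs at or below the median NC background, and the percentage wider was 70.2, 66.7, 65.4, 65.8 and 65.7 in that order. The stricter-q values cover 7505 pairs. For the 5751 pairs of the main result that reached this q in each library, the median was 0.22 and 69.2% were wider. That median lies below the main 0.25, so the direction of the shift depended on the choice of pairs. The percentage with higher enrichment was 71.7 at the stricter q and 73.4 with equal numbers, where its median log2 difference was 0.23. Counting protein-coding genes alone, 51.6% were intronic and 45.8% intergenic. AP-1 letters stood in 11.8% of 400-base windows, 3.62% at the stricter q, 5.44% of windows at midpoints and 15.6% of those centred on gaps. At the stricter q, NC KMT2D and NC EBF2 each overlapped 0.447% of members, KMT2D-KD KMT2D 0.394% and KMT2D-KD EBF2 0.383%. By any transcript start, 10 of the 20 leading genes remained among the leading 20. Where construction does not show it, the cause was not tested.

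The midpoint and gap windows, the low-background pairs and the set without KMT2D or EBF2 overlap were chosen after seeing the data. Leaving out soft-masked members was not run, since the reference is all upper case. No paired analysis was possible because there is 1 library per condition and target.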
